A study of Gallus gallus with 6 samples.

Results

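Kelch-like proteins (KLHL) and Kelch repeat and BTB domain-containing proteins (KBTBD) were examined in pectoral muscle of female broiler chickens. Their genes were taken as every gene of the expression table whose name begins with KLHL or KBTBD followed by a digit, which gave 41 of 20943 genes. Of these, 32 had a mean of at least 1 FPKM over all libraries and were tested, and 9 lay below that level. Birds fed a basal diet with 100 IU/kg of vitamin E (given as DL-α-tocopheryl acetate) were set against control birds fed the same basal diet with 0 IU/kg. All birds were 35 days of age, and 3 libraries were made per group from poly(A)-selected RNA of the pectoralis major. The labels name no breed and do not say whether the samples of a group came from separate birds, so p-values cover no more than the sample-to-sample spread, which may be technical. FPKM is the number of fragments scaled to gene length and library size, so levels of different genes can be set side by side.

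Most proteins of this family are substrate adaptors. An N-terminal BTB domain, followed by a BACK domain, binds the scaffold protein CUL3, and a C-terminal propeller of Kelch repeats holds the protein that CUL3 with its RING partner RBX1 then marks with ubiquitin. Several members are concentrated in striated muscle, where they take part in building and maintaining the sarcomere, and in human KLHL40, KLHL41 and KBTBD13 are genes of nemaline myopathy. KBTBD10 is the older symbol of KLHL41, and the authors' deposited annotation describes its product as Kelch-like protein 41.

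The authors' deposited annotation gave BACK as the best Pfam domain of 24 members, BTB of 15 and a Kelch repeat of the remaining 2, KBTBD13 and KLHL42. Among all 20943 rows, 33 carried BACK as best domain. The cellular component of 14 members was the Cul3-RING ubiquitin ligase complex, a term given to 32 rows of the table in all. A skeletal muscle fibre development term was attached to KBTBD10 and KLHL40.

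The library totals that scale the FPKM values, recovered from the steps of those values, lay between 14161399 and 25477341 reads. Control replicate 1 had the largest. Between 99.03% and 99.2% of each total fell in the tested genes, so the totals need not be the sequencing depth. Control replicate 1 lay farthest out on the first principal component of all tested genes, at -34.4, with the remaining 5 spread from -14.2 to 17.4. The muscle fibre genes ACTA1, TNNT3, ATP2A1, CKM and TNNI2 had between 905 and 37440 FPKM in every library, while PVALB did not exceed 0.649 FPKM. Fibroblast markers had a higher sum in vitamin E libraries. Their 6 genes summed to between 2177 and 3041 FPKM in vitamin E libraries, against 1499 to 1734 FPKM in controls. In limma 0 of the 6 passed at an adjusted p of 0.05, while 5 were higher at an unadjusted p under 0.05, as were 5.97% of all genes tested. The erythrocyte genes HBAA and HBAD summed to 75.4, 96.9 and 92.5 FPKM in vitamin E libraries, against 71.7, 34.3 and 64.8 FPKM in controls. In limma 2 of 2 were higher at an unadjusted p under 0.05, without overlap of the groups, and 0 passed at an adjusted p of 0.05. Of the 4 satellite cell and myoblast markers, 0 passed at an adjusted p of 0.05 in limma. MYOG and PAX7 were lower with vitamin E at an unadjusted p under 0.05, as were 3.14% of all genes tested. MYF5 and MYOD1 did not pass that threshold, with log2 differences of 0.58 and -0.21. Of the other marker lists, 1 of 4 adipocyte genes (FABP4) was higher at that threshold, and 0 of 5 endothelial, 0 of 3 immune and 0 of 2 slow fibre genes passed it in either direction. The part of these cell types in the results below was not tested. In bulk tissue, fewer cells of a type and less RNA per cell cannot be told apart.

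With vitamin E, KLHL38 and KLHL24 were the tested Kelch-like genes that stood above the control level by the largest margin, at 4.18-fold and 2.11-fold by group means. KLHL40, KBTBD4 and KLHL21 stood below it in all 3 vitamin E libraries. The most abundant pair, KBTBD10 and KLHL31, did not separate the groups. With limma, 0 of 32 members passed at an adjusted p of 0.05, as did 0 of all 11320 genes tested (0% called). The smallest adjusted p of a member was 0.266, that of KLHL38. Voom on the recovered reads called 0 members as well. At an unadjusted p under 0.05 there were 6 members, or 18.8%, against 9.11% of all genes tested. KLHL38, KLHL24 and KBTBD11 were higher (9.38% of members, background 5.97%), and KLHL40, KBTBD4 and KLHL21 were lower (9.38%, background 3.14%). KLHL38 averaged 0.671 FPKM in controls and was tested only through its vitamin E values. The count of higher members and the total of 6, which include it, are therefore descriptions and support nothing. Members were chosen with earlier results of these data known, so the count of lower members is a description too. The number of lower members depended on single libraries. It was 1 without vitamin E replicate 1 or 2, 2 without vitamin E replicate 3 or control replicate 1, and 6 without control replicate 2, while the number of higher members stayed between 2 and 4. The share of all genes at an unadjusted p under 0.05 moved too, from 6.17% without vitamin E replicate 2 to 13.7% without control replicate 2.

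As a family the genes had no common direction. Of the 32 tested members 16 had a positive difference, and the median was 0.0070 on the log2(FPKM + 1) scale, beside 0.019 for all genes tested. The groups did not overlap in 7 members (21.9%, against 14.6% of all genes), 3 of them higher (background 8.86%) and 4 lower (background 5.72%). KLHL38, tested only through its vitamin E values, is among the 7 and among the 3 higher, so these counts are descriptions and support nothing. The count of 4 lower is a description too, as members were chosen with earlier results of these data known. For 18 members the 95% interval of the difference lay within 1.5-fold in either direction on that scale, which understates the change of genes with low values.

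**Figure D1:**
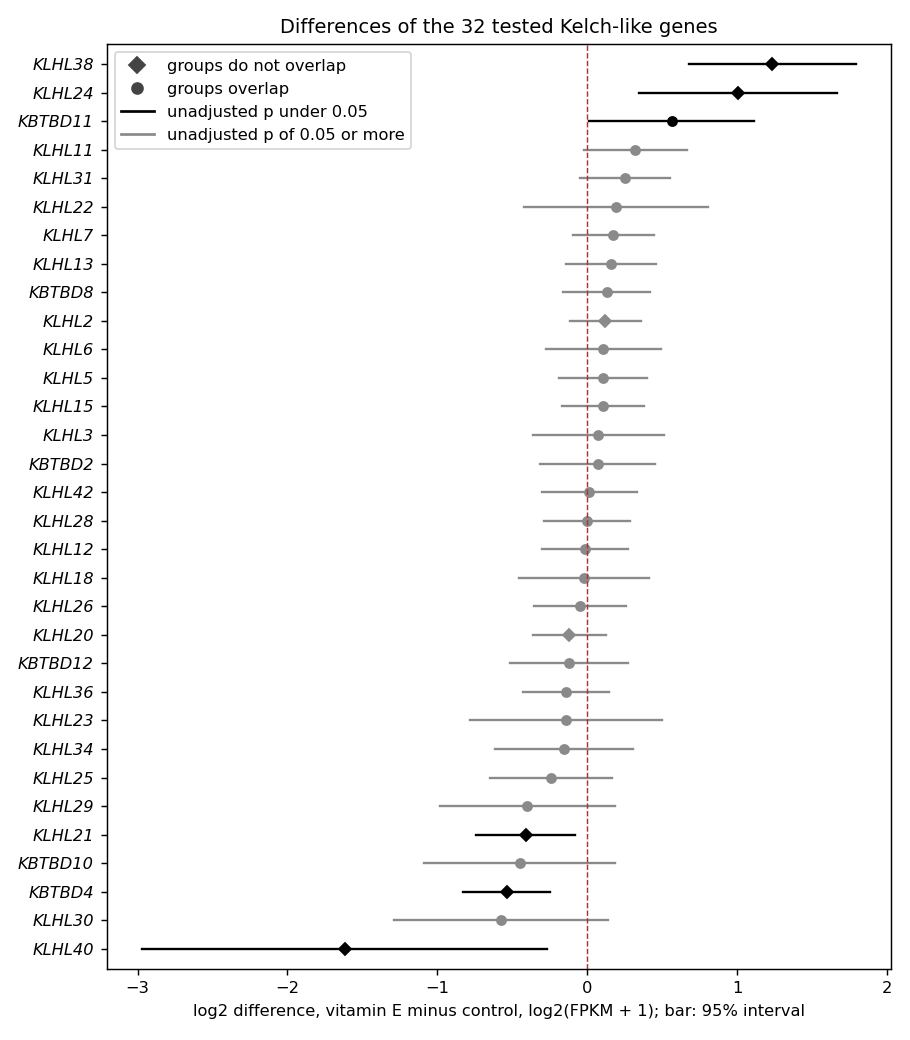
Log2 difference on the log2(FPKM + 1) scale, vitamin E minus control, of the 32 tested members (n = 3 libraries per group), with bars for the 95% interval of limma. The intervals of KLHL38, KLHL24 and KBTBD11 lie above 0, and those of KLHL21, KBTBD4 and KLHL40 lie below it. Of these, only KBTBD11 had groups that overlapped. KLHL2 and KLHL20 are the further members without overlap.

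Levels differed widely within the family. KBTBD10, with a mean of 482 FPKM, and KLHL31, with 224 FPKM, together made up between 70.7% and 74.4% of the summed FPKM of all members in each library. They ranked 116 and 231 by mean FPKM among the 11320 tested genes. A further 7 members lay between 10 and 100 FPKM, 23 between 1 and 10, and 9 below 1. The summed FPKM of the family was 926, 837 and 849 in vitamin E libraries, against 1402, 801 and 990 in controls, so that the groups overlapped and control replicate 1 was far above the rest. Without KBTBD10, KLHL31 and KLHL40 the sum was 213 ± 8.97 FPKM with vitamin E and 217 ± 12.3 FPKM in controls (SD, n = 3 each).

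**Figure D2:**
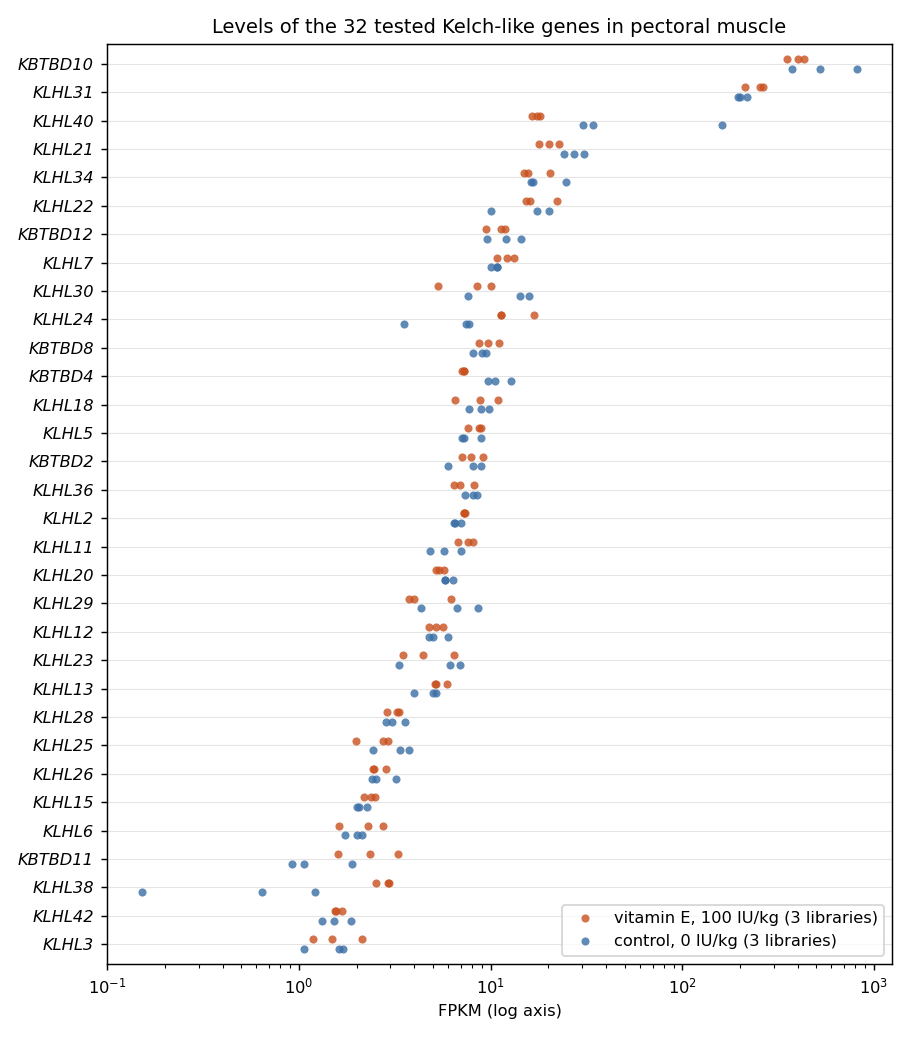
FPKM on a log axis of the 32 tested members in each of the 6 libraries, sorted by mean, with vitamin E above control for each gene. KBTBD10 and KLHL31 lie near or above 200 FPKM in every library, and the isolated control point of KLHL40 is replicate 1.

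Among the members of striated muscle, KBTBD10 (chromosome 7, 18756267 to 18767319) was the most abundant. Its product, Kelch-like protein 41, takes part in sarcomere assembly and stabilises nebulin in mouse muscle. It had 434, 352 and 403 FPKM in vitamin E libraries, against 813, 372 and 521 FPKM in controls. Control replicate 1 was the high library, while control replicate 2 lay among the vitamin E libraries, so the groups overlapped. The log2 difference was -0.45 ± 0.27 (SE), with an unadjusted p of 0.138 in limma, and -0.16 without control replicate 1.

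KLHL31 (chromosome 3, 88498435 to 88510268), which in mouse muscle directs the turnover of filamin C, had 256, 264 and 213 FPKM in vitamin E libraries, against 200, 195 and 216 FPKM in controls. Vitamin E replicate 3 lay below control replicate 3, so the groups overlapped by that pair alone. The log2 difference was 0.25 ± 0.13 (SE), with an unadjusted p of 0.0850 in limma. The ratio of KBTBD10 to KLHL31 was 1.70, 1.33 and 1.90 with vitamin E, against 4.07, 1.91 and 2.41 in controls. No vitamin E library reached the lowest control, although the margin at 1.90 against 1.91 was small. Ratios between members were not among the results planned in advance, and how often ratios of other genes separate the groups was not measured. With 3 libraries on each side, the smallest two-sided p of an exact permutation test is 0.1.

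KLHL40 (chromosome 2, 2026773 to 2039364) binds nebulin and leiomodin 3 in mouse muscle and protects them from degradation. It had 16.5, 18.2 and 17.4 FPKM in vitamin E libraries, against 161, 30.4 and 34.1 FPKM in controls. All 3 vitamin E libraries lay close together and below every control, and control replicate 1 was 4.99 times the mean of the other controls. The log2 difference was -1.62 ± 0.58 (SE; unadjusted p = 0.0251 and adjusted p = 0.478 in limma). Without control replicate 1 it was -0.86, and the controls then averaged 1.86 times the vitamin E level, against 4.33 times with all 3. In that fit the unadjusted p in limma was 0.000302 and the adjusted p was 0.214. The unadjusted p in limma lay between 0.054 and 0.064 when any 1 vitamin E library was left out. Relative to KBTBD10, KLHL40 stood at 3.80%, 5.17% and 4.32% with vitamin E, against 19.8%, 8.19% and 6.54% in controls. Here too the groups did not overlap, as they already did not for KLHL40 alone. This ratio was not planned in advance either. A row for ZBTB47 on the opposite strand overlaps KLHL40, at a mean of 6.45 FPKM, and reads of the overlap could not be assigned by strand.

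KLHL38 (chromosome 2, 138218323 to 138231228), a little-studied Kelch-like protein of muscle, had the smallest p of the tested members. Its mean passed the minimum of 1 FPKM only through the vitamin E libraries, so its test was not independent of that minimum. It had 2.96, 2.93 and 2.53 FPKM in vitamin E libraries, against 0.642, 1.22 and 0.152 FPKM in controls. Every vitamin E library was above the highest control, and control replicate 3 was the lowest. These levels rested on 389, 404 and 360 reads with vitamin E, against 152, 195 and 23 reads in controls. Its log2 difference was 1.24 ± 0.24 (SE; unadjusted p = 0.00111 and adjusted p = 0.266 in limma). It stayed between 0.99 and 1.47 without single libraries, and the unadjusted p was under 0.05 in each of these 6 fits. With no minimum the unadjusted p in limma was 0.00211 and the adjusted p was 0.4575. The size depended on the scale, with 2.21 at a pseudocount of 0.1 and 2.44 in voom. So did its rank, as at a pseudocount of 0.1 its unadjusted p in limma was 0.00531, above the 0.00307 of KBTBD4.

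The other muscle members did not separate the groups. KLHL34 had 15.7, 15.02 and 20.4 FPKM with vitamin E, against 24.9, 16.6 and 16.3 FPKM in controls, and control replicate 1 was again the highest. Its difference of -0.15 turned to 0.037 without that library. KLHL30 averaged 7.97 ± 2.45 FPKM with vitamin E and 12.6 ± 4.39 FPKM in controls (SD, n = 3 each), and the groups overlapped. Its log2 difference was -0.58, and leaving out vitamin E replicate 2 gave -0.34, whereas leaving out control replicate 2 gave -0.88. KBTBD12 averaged 10.9 ± 1.27 FPKM with vitamin E and 12.02 ± 2.45 FPKM in controls (SD, n = 3 each). KBTBD13, whose human counterpart is a nemaline myopathy gene, had 0.518, 0.461 and 0.687 FPKM with vitamin E, against 1.04, 0.767 and 0.602 FPKM in controls, and was not tested.

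**Figure D3:**
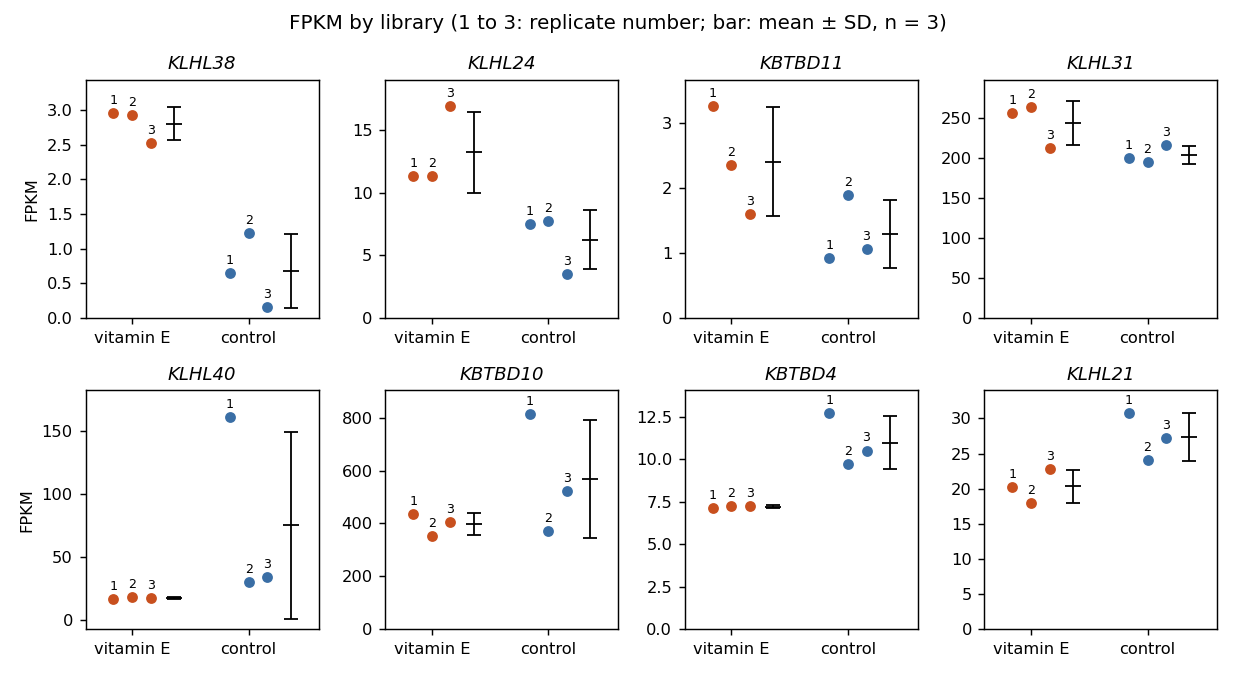
FPKM of 8 members in each library, vitamin E left of control, with the replicate number over each point and the mean ± SD (n = 3) beside the points. The groups are apart in KLHL38, KLHL24, KLHL40, KBTBD4 and KLHL21, and control replicate 1 is far above the rest in KLHL40 and KBTBD10.

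Of the members that act on cell division or the cytoskeleton, KLHL21 (chromosome 21, 544587 to 553885) was lower with vitamin E. In human cells it brings Aurora B kinase to the spindle midzone. It had 20.2, 17.98 and 22.8 FPKM in vitamin E libraries, against 30.8, 24.0 and 27.2 FPKM in controls. The groups came close at vitamin E replicate 3 and control replicate 2 but did not overlap. This gave a log2 difference of -0.41 ± 0.14 (SE; unadjusted p = 0.0216 and adjusted p = 0.453 in limma). It ranged from -0.50 to -0.32 without single libraries, and the unadjusted p was no longer under 0.05 without vitamin E replicate 1, vitamin E replicate 2 or control replicate 1.

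KLHL22, an adaptor for the mTORC1 inhibitor DEPDC5 in human cells, had 22.1, 16.1 and 15.3 FPKM with vitamin E, against 10.01, 17.5 and 20.2 FPKM in controls. Control replicate 1 was the low library here, and the difference of 0.19 turned to -0.092 without it. KLHL2, an actin-binding member also called Mayven, was the steadiest of the family. It had 7.27, 7.29 and 7.38 FPKM with vitamin E, against 6.49, 6.42 and 7.03 FPKM in controls. The groups were apart, but the log2 difference was small at 0.12 ± 0.10 (SE; unadjusted p = 0.258 in limma). KLHL18, KLHL13 and KLHL42, which act on Aurora A, on Aurora B and on the microtubule-severing protein katanin in human cells, had differences of -0.020, 0.16 and 0.016.

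Among adaptors of signalling, trafficking and protein turnover, KLHL24 (chromosome 9, 2573431 to 2586974) was higher with vitamin E. Human variants that stabilise this protein deplete keratin 14 in skin and desmin in heart. It had 11.4, 11.4 and 16.9 FPKM in vitamin E libraries, against 7.47, 7.74 and 3.55 FPKM in controls. Control replicate 3 was the lowest library and vitamin E replicate 3 the highest. The log2 difference was 1.01 ± 0.28 (SE; unadjusted p = 0.00832 and adjusted p = 0.381 in limma). Without control replicate 3 it was 0.70, the lowest of the 6 fits that left out a library, and the unadjusted p was under 0.05 in all of them.

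KBTBD4 (chromosome 5, 22795317 to 22802423) was lower with vitamin E. It had 7.11, 7.27 and 7.26 FPKM in vitamin E libraries, against 12.7, 9.70 and 10.5 FPKM in controls. The vitamin E libraries had a coefficient of variation of 1.23%, and every control was above them. KBTBD4 had a log2 difference of -0.54 ± 0.12 (SE; unadjusted p = 0.00322 and adjusted p = 0.300 in limma), with a range of -0.62 to -0.44 without single libraries and an unadjusted p under 0.05 in each of those fits.

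The rest of this group differed by 0.24 or less on the log2 scale. KLHL20, an adaptor for the autophagy kinase ULK1 in human cells, had 5.68, 5.17 and 5.37 FPKM with vitamin E, against 5.76, 5.76 and 6.34 FPKM in controls. The groups were just apart, with a log2 difference of -0.12 ± 0.10 (SE; unadjusted p = 0.293 in limma). KBTBD2, which limits the p85α subunit of PI3 kinase in mouse, differed by 0.072. KBTBD8, KLHL7 and KLHL12, the last an adaptor for the COPII coat protein SEC31 in mouse and human cells, differed by 0.13, 0.18 and -0.016. KLHL15 and KLHL25, adaptors for a PP2A subunit and for the translation repressor 4E-BP1 in human cells, differed by 0.11 and -0.24.

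KBTBD11 (chromosome 3, 91193659 to 91214821) was the sixth member at an unadjusted p under 0.05. It had 3.27, 2.36 and 1.598 FPKM in vitamin E libraries, against 0.923, 1.90 and 1.06 FPKM in controls. Vitamin E replicate 3 lay below control replicate 2, so the groups overlapped. Its log2 difference was 0.57 ± 0.23 (SE; unadjusted p = 0.0452 and adjusted p = 0.537 in limma), and the unadjusted p was under 0.05 in 2 of the 6 fits that left out a library. It was 0.0601 with no minimum FPKM and 0.0521 with quantile normalization in limma, and the difference was 0.94 in voom. KLHL11 had 8.07, 7.66 and 6.75 FPKM with vitamin E, against 4.84, 7.01 and 5.68 FPKM in controls, with a log2 difference of 0.32 and an unadjusted p of 0.0630 in limma. KLHL5, KLHL6, KLHL23, KLHL26, KLHL28, KLHL29 and KLHL36 had differences between -0.40 and 0.11. KLHL6, known from B cells, averaged 2.21 ± 0.565 FPKM with vitamin E and 1.96 ± 0.206 FPKM in controls (SD, n = 3 each).

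The members nearest to the minimum of 1 FPKM were KLHL42 and KLHL3 above it, and KLHL8 and KBTBD13 below it. KLHL42 had 1.68, 1.54 and 1.56 FPKM with vitamin E, against 1.52, 1.88 and 1.33 FPKM in controls. KLHL3, which directs the turnover of WNK kinases in the kidney, had 2.12, 1.49 and 1.18 FPKM with vitamin E, against 1.70, 1.61 and 1.06 FPKM in controls. KLHL3 overlaps 4 other rows, among them the muscle gene MYOT on the opposite strand at 71.3 FPKM, and its reads could not be separated from theirs by strand. KLHL8 had 0.979, 1.05 and 1.22 FPKM with vitamin E, against 0.809, 0.865 and 0.604 FPKM in controls, so the groups were apart below the level at which genes were tested. NUDT9, at a mean of 6.06 FPKM, overlaps KLHL8 on the opposite strand, and reads of the overlap could not be assigned by strand. The same holds for KBTBD12 under MGLL (10.85 FPKM), KLHL28 under FAM179B (3.63 FPKM) and KLHL34 under CNKSR2 (5.275 FPKM). An overlapping row was present for 10 members, 8 of them tested.

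The other members below 1 FPKM were KBTBD3, KLHL4, KLHL17, KLHL10, KLHL14, KLHL32 and KLHL1, at means between 0.0132 and 0.382 FPKM. KLHL10, a testis gene in mouse, had 3 to 16 reads per library. KLHL32 had 9, 10 and 13 reads in vitamin E libraries, against 6 in each control. KBTBD3 had 0.405, 0.366 and 0.2075 FPKM with vitamin E, against 0.409, 0.413 and 0.493 FPKM in controls, so the groups were just apart. KLHL1, a neuronal gene in mammals, had 1, 2 and 1 reads with vitamin E, against 0, 1 and 2 reads in controls, where the 0 of control replicate 1 allows up to 0.0207 FPKM. With no minimum FPKM, KLHL32 was among the members at an unadjusted p under 0.05 in limma and KBTBD11 was not. Levels this low rest on few reads.

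The spread between libraries of a group varied widely among members. The median within-group SD of log2(FPKM + 1) was 0.19 for the tested members, as it was for all genes tested. KLHL2, KLHL20 and KLHL15 had the smallest, between 0.045 and 0.069, and KLHL40 the largest, at 0.94, followed by KLHL30, KLHL24, KLHL23 and KBTBD10 at 0.41 to 0.48. Control replicate 1 held the highest value of 11 tested members (34.4%) and the lowest of 8, where it held the highest value of 24.95% and the lowest of 20.3% of all genes tested. The difference kept its sign in all 6 fits that left out a library for 20 of 32 members.

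**Figure D4:**
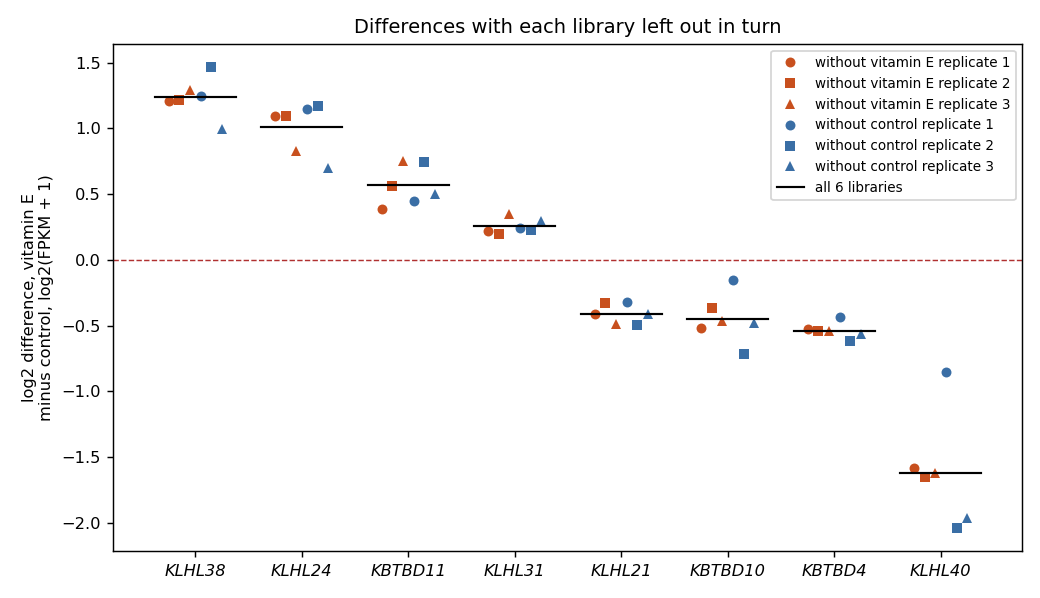
Log2 difference on the log2(FPKM + 1) scale, vitamin E minus control, of 8 members with each library left out in turn, and with all 6 libraries as black lines. KLHL38 and KLHL24 stay at or above 0.70 in every fit, and KLHL40 moves most, to -0.86 without control replicate 1. Each fit kept the genes tested with all 6 libraries, which KLHL38 entered only through its vitamin E values.

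In the deposited positions 3 pairs of members are neighbours. KLHL24 and KLHL6 lie head to head on chromosome 9, 10548 bases apart, and had log2 differences of 1.01 and 0.11. KBTBD10 and KLHL23 lie on the same strand of chromosome 7, separated by 70310 bases, and had mean levels of 482 and 5.11 FPKM. KLHL10 and KLHL11 meet tail to tail on chromosome 27 with 171 bases between them, at 0.185 and 6.67 FPKM. Positions are those of the deposited table, for which no build is stated.

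The ligase that these adaptors serve was measured through 24 genes of the CUL3 core, neddylation and the COP9 signalosome, all of them tested. The scaffold gene CUL3 itself had 95.3, 106 and 104 FPKM with vitamin E, against 93.9, 112 and 104 FPKM in controls, and the groups overlapped fully. RBX1 had 98.1, 92.2 and 99.5 FPKM with vitamin E, against 196, 69.2 and 111 FPKM in controls, with control replicate 1 the highest. The median difference of the list was -0.058. This list too was chosen with earlier results of these data known, so its counts are descriptions. With limma, 0 of 24 passed over all genes. At an unadjusted p under 0.05, where 5.97% of all genes tested were higher and 3.14% lower, 0 were higher and 1 was lower. That gene was DCUN1D5, a co-factor of cullin neddylation, with 33.0, 39.0 and 39.7 FPKM with vitamin E, against 120, 63.5 and 57.1 FPKM in controls (log2 difference -1.01 ± 0.27, SE).

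Of 22 listed adaptors that carry a BTB domain under other names, 16 were tested, with a median of 0.014. With limma, 0 passed over all genes. At an unadjusted p under 0.05, 2 were higher (5.97% of all genes tested) and 0 lower (3.14% of all genes tested). These counts are descriptions and support nothing, as the list was chosen with earlier results of these data known. ZBTB16, a zinc finger factor that also binds CUL3, had 7.55, 9.07 and 8.94 FPKM with vitamin E, against 2.08, 4.22 and 3.24 FPKM in controls (log2 difference 1.22 ± 0.20, SE). SPOPL had 13.8, 13.2 and 14.7 FPKM with vitamin E, against 10.7, 12.01 and 9.83 FPKM in controls. ENC1 and IVNS1ABP, which are Kelch proteins with a BTB domain too, had differences of 0.53 and -0.093.

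Known partners and substrates of the members were followed as transcripts of 24 tested genes, with a median of -0.096. The members act on them as proteins, and protein levels and turnover were not measured. With limma, 0 passed over all genes. At an unadjusted p under 0.05, 0 were higher (5.97% of all genes tested) and 1 lower (3.14% of all genes tested). Here too the counts are descriptions, as the list was chosen with earlier results of these data known. The lower gene was NRAP, an actin-anchoring protein of forming myofibrils that binds Kelch-like protein 41 in mouse. It had 79.8, 60.1 and 73.9 FPKM with vitamin E, against 227, 88.5 and 137 FPKM in controls (log2 difference -0.98 ± 0.32, SE), and the groups did not overlap.

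Transcripts of the KLHL40 partners overlapped between the groups, which does not show the turnover of the proteins. NEB had 634, 395 and 480 FPKM with vitamin E, against 672, 451 and 614 FPKM in controls, and LMOD3 had 91.8, 46.6 and 63.3 FPKM with vitamin E, against 101, 73.3 and 133 FPKM in controls. Desmin (DES), which a stabilised KLHL24 depletes in human heart, had 841, 896 and 1532 FPKM with vitamin E, against 2380, 1014 and 1307 FPKM in controls. FLNC, which encodes filamin C, had 53.6, 47.6 and 77.6 FPKM with vitamin E, against 130, 40.1 and 68.5 FPKM in controls. Control replicate 1 was the highest library in 12 of the 24 partner genes, NRAP, NEB, DES and FLNC among them. It was the highest in 24.95% of all genes tested, in 5 of 24 CUL3 core genes and in 6 of 16 other adaptors. Without control replicate 1 the median of the partner list turned to 0.028.

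**Figure D5:**
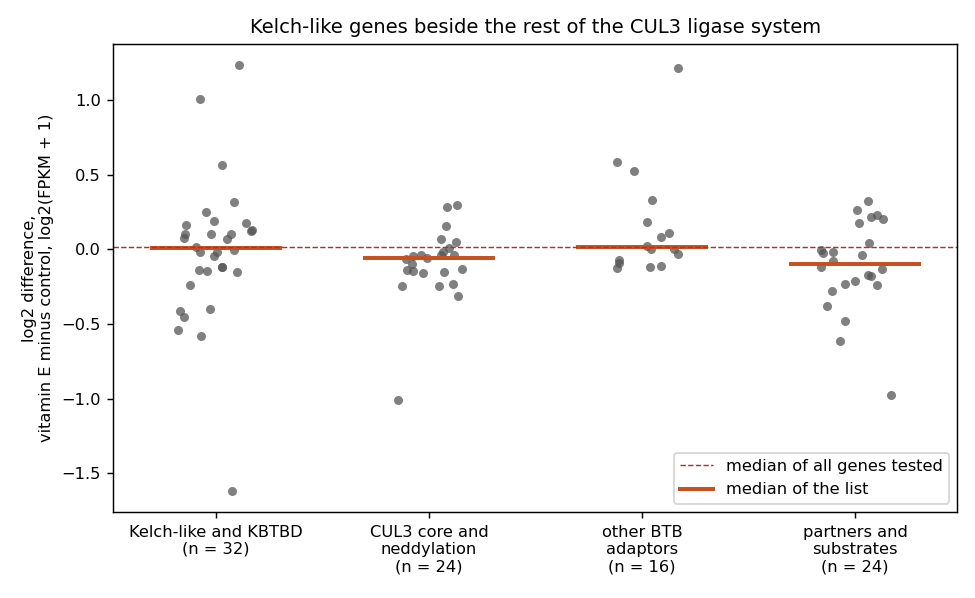
Log2 difference on the log2(FPKM + 1) scale, vitamin E minus control, of each tested gene of the family and of 3 related lists, with an orange line for each list's median and a dashed line for the median of all genes tested. The medians lie between -0.096 and 0.014, and the points farthest from 0 are KLHL38, KLHL24 and KLHL40 in the family, DCUN1D5, ZBTB16 and NRAP in the lists.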

How the data were processed

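The authors deposited 1 table of FPKM values, per gene and library. The submitters' processing notes name TopHat2 2.0.12. No counter, annotation, strand setting or genome build is stated in the labels. Groups came from the sample labels. The steps between low FPKM values gave back whole reads, lengths and totals for all 11320 tested genes (99.1% of lengths whole within 0.05). Of the 32 tested members, 28 had at least 100 reads in every library, and the lowest value rests on 23 reads.

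Vitamin E was compared with control by limma 3.58.1 (R 4.3.3), two-sided, after log2(FPKM + 1), with the prior variance following intensity. Genes averaging 1 FPKM or more entered, and p-values were adjusted by Benjamini-Hochberg over all of them at a threshold of 0.05. No set test was run. The fit was also run on simulated reads, drawn for each gene separately with the same spread in every library, so without an outlying library. At an adjusted p under 0.05 it recovered 50.5% of 2-fold and 86.7% of 4-fold changes, and 7.69% of its calls were false. Members and lists were chosen with earlier results of these data known. Values in every library are given for the 6 most abundant tested members, those at an unadjusted p under 0.05, those without overlap, those nearest to 1 FPKM and genes of the 3 pathway lists at an unadjusted p under 0.05. Cell type markers are given as counts and sums. Other genes given by library were chosen after their values were seen. Symbols of 39 of 41 members are in the RefSeq gene table of assembly GRCg7b, used to name the chromosomes, where KLHL13 is a synonym of KLHL9. Alternatives were other pseudocounts, filters, scalings, variance models, blocks, voom on recovered reads and left-out libraries. Listed genes with no row under their name were not analysed here. Figures were drawn with matplotlib 3.10.9.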

Additional observations from a re-analysis of the deposited data

How the results depend on the processing

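Under 19 alternatives, namely 2 other pseudocounts, 2 other filters, 3 scalings, 3 variance models, 2 blocks, voom on recovered reads and each of 6 libraries left out, limma called 0 members over all genes in each fit. Genes called of all tested numbered 2 with a minimum of 5 FPKM and 2 with voom, none of them a member, and 0 under the rest. The members higher at an unadjusted p under 0.05 numbered 1 with a minimum of 5 FPKM, where KLHL38 and KBTBD11 were no longer tested. Those higher without overlap numbered 5 with no filter on low values, which adds KLHL8 and KLHL32, and 2 under each of the 3 scalings. Those lower without overlap numbered 5 with no filter on low values, which adds KBTBD3. Without single libraries the lower members at an unadjusted p under 0.05 ranged from 1 to 6, the higher members without overlap from 3 to 8 and the lower ones without overlap from 4 to 8, where fewer libraries make separation easier by construction. Over these fits 6.17% to 13.7% of all genes had an unadjusted p under 0.05. The median of CUL3 core genes ranged from -0.19 to -0.039 and that of partners and substrates from -0.14 to 0.028. The cause was not tested. Without single libraries KLHL34 ranged from -0.28 to 0.037 and KLHL22 from -0.092 to 0.38, both changing sign without control replicate 1. The median of the family ranged from -0.030 to 0.026 over the alternatives that kept all libraries. It was negative under each of the 3 scalings and, at -0.020, with a minimum of 5 FPKM. The median of all genes turned negative under the same scalings, from 0.0192 to -0.0053 (TMM-type), -0.0060 (median-of-ratios) and -0.0051 (quantile). None of the alternatives that kept all libraries moved the median of all genes by more than 0.1. Among the 12 members followed across settings, KLHL38 had a difference of 2.21 with a pseudocount of 0.1 and 2.44 with voom.

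Replicate numbers are shared between groups, but deviations of same-numbered libraries correlated at -0.13, 0.15 and 0.012, so the numbers were not taken to pair the samples. Deviations of differently numbered libraries correlated at between -0.17 and 0.14. With the replicate block 3 members were higher and 4 lower at an unadjusted p under 0.05, KLHL30 being added, and 0 passed over all genes. The other block was a digit in the sample descriptions, which the labels do not explain. With it 3 members were higher and 3 lower at that threshold, and 0 passed over all genes. Low counts limit KLHL38 in control replicate 3 (23 reads) and the 9 members below 1 FPKM, which had at most 108 reads in a library.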
